A study of Mus musculus with 6 samples.

Results

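The collagen genes were taken as every gene of the expression table whose symbol is Col, a number, a and a number, which gave 44 of the 35275 genes listed. They were sorted into 11 fibrillar genes, 6 basement membrane genes of the Col4 family, 6 Col6 genes, Col15a1 with Col18a1, and 19 others. RNA sequencing was done on epididymal adipose tissue, the visceral fat beside the testis, from male C57BL/6 mice of the TfrcAKO and the Tfrcfl/fl genotype, with 3 samples in each group. All mice were 4.5 months old and had eaten a 60% high-fat diet for 10 weeks, beginning at 2 months of age, so no group on ordinary chow enters any comparison. Tfrc encodes the transferrin receptor, which brings iron into cells, and fl/fl marks alleles flanked by recombination sites. The promoter or Cre line behind the TfrcAKO genotype is not stated in the labels. Nor do the labels say that the 3 samples of a group came from separate mice, which means that every p-value here reflects only sample-to-sample spread, possibly of technical origin.

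Collagens are proteins of 3 chains wound into a triple helix. Fibrillar collagens assemble into the load-bearing fibres of fibrous tissue, type IV collagen forms the sheet-like scaffold of the basement membrane that wraps each adipocyte and each vessel, and type VI collagen forms beaded filaments next to that layer. In the fat of obese mice, fibrous collagen is known to accumulate around adipocytes and inflamed areas. The prolyl and lysyl hydroxylases that modify collagen chains need iron as a cofactor.

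Levels are given as FPKM, fragments scaled to gene length and library size, so each value is a share of its library. The main test made no further correction for differences in RNA make-up between samples. Gene positions are those of the expression table, on build mm10. The libraries held 25252839 to 30650624 reads assigned to genes. Tfrc itself was at 7.10, 8.27 and 9.50 FPKM in TfrcAKO samples, against 11.1, 13.2 and 11.9 FPKM in Tfrcfl/fl samples. The groups did not overlap, and the log2 difference was -0.52 ± 0.12 (SE, limma adjusted p = 0.0147), with the adjusted p at 0.0596 without Tfrcfl/fl replicate 2 and 0.0527 without Tfrcfl/fl replicate 3. All 12 mature adipocyte markers passed the measurement limit given below, while none of 8 epididymis epithelium markers did, with Lcn5 and Spink12 at 0 in every sample. The epididymis list summed to 2.3, 0.48 and 0.0729 FPKM in TfrcAKO samples and 0.0942 to 0.242 FPKM in Tfrcfl/fl samples. Lcn8 was at 1.4 FPKM in TfrcAKO replicate 1. TfrcAKO replicate 3 stood apart: on the first principal component, which held 78.28% of the variance, it lay at -60.93, the other TfrcAKO samples at -21.71 and -25.24, and the Tfrcfl/fl samples between 28.64 and 41.71.

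The called collagen genes lay in both directions. Basement membrane genes Col4a1 and Col4a2, the linking collagens Col15a1 and Col18a1, the fibrillar gene Col5a3 and the membrane collagen Col23a1 were higher in TfrcAKO tissue, while the interstitial genes Col1a1 and Col3a1 were lower. A gene counted as measured when it reached 0.5 FPKM in at least 3 samples, and 27 of the 44 collagen genes did. Each was tested with limma on log2(FPKM + 0.5), a scale that understates the change of low genes, and called at an adjusted p below 0.05 over all 14383 genes tested, and a value in parentheses after a left-out library is that adjusted p. In counts of genes below, rose and fell stand for called higher and called lower. Of the 27, 7 were called higher, Col4a4 among them, and 2 lower, so 33.3% were called. Across all tested genes 43.5% were called, 21.9% higher and 21.6% lower, so the collagens as a whole were not called more often than other genes. The median log2 difference was 0.12 for the measured collagens and -0.03 for all tested genes. In 15 of the 27 the groups did not overlap, 10 with TfrcAKO higher and 5 with TfrcAKO lower. Of all tested genes 60.1% did not overlap, 29.1% of all with TfrcAKO higher and 31.0% of all with TfrcAKO lower. Col4a4 passed the measurement limit through its TfrcAKO samples alone, which fixed in advance that its groups would not overlap. Without it 26 genes remain, 6 called higher and 2 lower. In 14 of the 26 the groups did not overlap, 9 with TfrcAKO higher. The counts depended on single libraries: without TfrcAKO replicate 3 there were 13 higher, Col4a4 included, and 4 lower, when 21.3% and 20.1% of all genes were called. The lower count was 5 without TfrcAKO replicate 1 and 1 without TfrcAKO replicate 2. It was 0 without any 1 of the Tfrcfl/fl libraries, although 4, 2 and 1 collagen genes had a limma p below 0.05 before adjustment without Tfrcfl/fl replicates 1, 2 and 3. Since these are bulk tissue libraries, fewer cells of a type and less RNA per cell cannot be told apart.

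**Figure D1:**
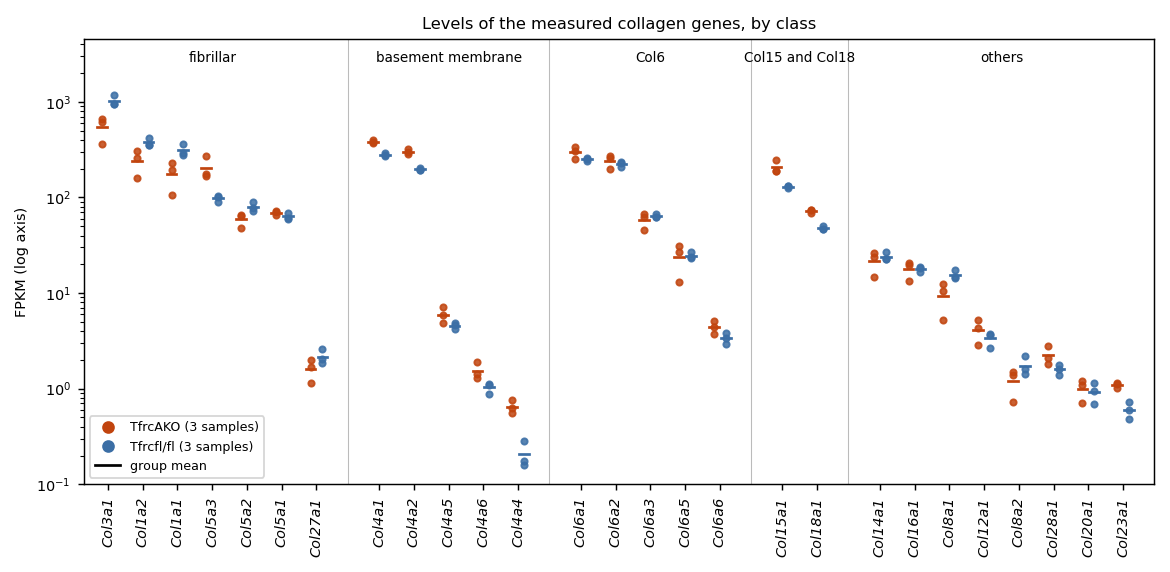
FPKM (vertical log axis) of the 27 measured collagen genes by class, with a point for each of the 3 TfrcAKO and 3 Tfrcfl/fl samples and a short line for each group mean. Col4a1, Col4a2, Col15a1, Col18a1 and Col5a3 lie higher in every TfrcAKO sample, while Col3a1 and Col1a1 lie lower.

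Among the fibrillar genes, 7 of 11 were measured, Col5a3 rose, Col3a1 and Col1a1 fell, and the median log2 difference was -0.43. That is 14.3% called higher and 28.6% lower, beside 21.9% and 21.6% of all tested genes. Col3a1 (ENSMUSG00000026043, chr1:45311538-45349706, plus strand), which encodes the type III chain that builds fine, extensible fibres with type I collagen, had the highest FPKM of any collagen gene in both groups. It was at 667, 612 and 360.1 FPKM in TfrcAKO samples, against 945, 957 and 1186 FPKM in Tfrcfl/fl samples. The groups did not overlap, and TfrcAKO replicate 3 was the lowest sample. Its level averaged 546 ± 164 FPKM in TfrcAKO and 1029 ± 136 FPKM in Tfrcfl/fl (SD, n = 3 each), a ratio of 0.531. The log2 difference was -0.96 (95% interval -1.55 to -0.36, limma adjusted p = 0.0222). The adjusted p was 0.0502, 0.0637 and 0.0815 without Tfrcfl/fl replicates 1, 2 and 3. Col1a1 and Col1a2 encode the chains of type I collagen, the main protein of tendon, bone and scar. Col1a1 (ENSMUSG00000001506, chr11:94936224-94953042, plus strand) stood at 229, 195 and 105 FPKM in TfrcAKO samples, against 294, 276 and 364 FPKM in Tfrcfl/fl samples, again with no overlap and TfrcAKO replicate 3 lowest. The log2 difference was -0.89 ± 0.29 (SE, limma adjusted p = 0.0466), and the gene was no longer called without TfrcAKO replicate 2 (0.0682) or without Tfrcfl/fl replicates 1, 2 or 3 (0.0958, 0.0940 and 0.141). Col1a2 was at 303, 260 and 159.8 FPKM in TfrcAKO samples, against 352, 357 and 421 FPKM in Tfrcfl/fl samples. Its groups did not overlap either, but it was not called (log2 difference -0.69, 95% interval -1.26 to -0.12, limma adjusted p = 0.0538). It was called without TfrcAKO replicate 1 (0.0261) and, with a log2 difference of -0.42, without TfrcAKO replicate 3 (0.0189).

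Types V and XXVII make up the rest of the measured fibrillar genes. Type V collagen sits inside type I fibres and limits their width, and its 3 genes differed in direction. Col5a3 (ENSMUSG00000004098, chr9:20770050-20815067, minus strand), whose chain is found in fat and pancreatic islets of mice, was at 169, 174 and 271 FPKM in TfrcAKO samples, against 102, 88.7 and 103 FPKM in Tfrcfl/fl samples. Every TfrcAKO sample was above every Tfrcfl/fl sample, and replicate 3 was the highest. Col5a3 rose 2.09-fold, with means of 205 ± 57.3 FPKM in TfrcAKO and 98.0 ± 8.01 FPKM in Tfrcfl/fl (SD, n = 3 each), and a log2 difference of 1.03 (95% interval 0.57 to 1.48, limma adjusted p = 0.00825). Col5a1 was at 71.9, 70.2 and 65.0 FPKM in TfrcAKO samples, against 61.7, 59.6 and 69.3 FPKM in Tfrcfl/fl samples, with overlap and a log2 difference of 0.12 (95% interval -0.09 to 0.33, limma adjusted p = 0.295). Col5a2 had 66.3, 64.4 and 47.5 FPKM in TfrcAKO samples, against 72.4, 77.6 and 89.0 FPKM in Tfrcfl/fl samples. Its groups did not overlap, with a log2 difference of -0.43 and a limma adjusted p of 0.0554, or 0.0466 without TfrcAKO replicate 1. The Col5a3 share of summed Col5 FPKM was 55.0%, 56.4% and 70.6% in TfrcAKO samples, against 43.2%, 39.3% and 39.5% in Tfrcfl/fl samples. Col27a1, a fibrillar gene best known in cartilage, was low, at 1.16 to 2.01 FPKM in TfrcAKO samples and 1.85 to 2.60 FPKM in Tfrcfl/fl samples, and was not called (limma adjusted p = 0.188).

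The promoters of Col3a1 and Col5a3, fibrillar genes called in opposite directions, are shown because their base composition differs. Both are RefSeq sequences of GRCm38.p6, from 250 bases before to 50 bases after the start, and capitals mark CCAAT, the GC box GGGCGG and TATAAA on either strand. Col3a1 (chr1:45311288-45311587, plus strand) is 37.7% G and C, with 1 TATAAA match and neither other motif. Col5a3 (chr9:20815018-20815317, minus strand) is 63.3% G and C, with 1 CCAAT and 3 GC boxes. This pair does not stand for the class. Col1a2, lower in every TfrcAKO sample but not called, has a window with 61.0% G and C, 2 CCAAT and 2 GC boxes. Of all 32851 promoter windows in the RefSeq table, 37.4% hold CCAAT, 35.7% GGGCGG and 13.6% TATAAA, and a match is not evidence of binding.
Col3a1: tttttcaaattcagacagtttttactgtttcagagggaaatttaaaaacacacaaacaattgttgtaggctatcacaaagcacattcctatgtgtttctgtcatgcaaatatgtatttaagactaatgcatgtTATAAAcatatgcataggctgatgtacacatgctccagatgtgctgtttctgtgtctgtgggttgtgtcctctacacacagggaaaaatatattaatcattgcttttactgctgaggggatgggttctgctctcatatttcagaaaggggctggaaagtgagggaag
Col5a3: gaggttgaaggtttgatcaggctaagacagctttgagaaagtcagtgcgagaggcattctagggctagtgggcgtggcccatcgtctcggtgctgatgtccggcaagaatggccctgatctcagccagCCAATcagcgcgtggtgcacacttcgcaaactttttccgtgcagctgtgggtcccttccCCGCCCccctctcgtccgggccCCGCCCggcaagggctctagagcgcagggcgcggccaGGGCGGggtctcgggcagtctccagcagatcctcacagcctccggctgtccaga

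The common type IV collagen genes were higher in TfrcAKO tissue. Of the 6 Col4 genes 5 were measured, Col4a4 through its TfrcAKO samples alone. The other 4 had higher levels in every TfrcAKO sample than in any Tfrcfl/fl sample, beside 29.1% of all tested genes. For Col4a5 the margin was narrow, with the closest samples at 4.83 FPKM in TfrcAKO and 4.82 FPKM in Tfrcfl/fl. Of the 4, 2 were called higher, beside 21.9% of all tested genes. Their median log2 difference was 0.43. Col4a1 (ENSMUSG00000031502, chr8:11198423-11312826, minus strand) and Col4a2 (ENSMUSG00000031503, chr8:11312805-11449287, plus strand) encode the chains of the common type IV network. Col4a1 was at 371, 376 and 398 FPKM in TfrcAKO samples, against 289, 276 and 274 FPKM in Tfrcfl/fl samples. Within each group the samples lay close together. Col4a1 rose 1.36-fold (log2 difference 0.45, 95% interval 0.23 to 0.66, limma adjusted p = 0.00986), with an adjusted p of 0.0511 without Tfrcfl/fl replicate 3 and 0.0761 by limma-voom with a replicate block. Col4a2 had 299, 286 and 322 FPKM in TfrcAKO samples, against 201, 193 and 195 FPKM in Tfrcfl/fl samples. It rose 1.54-fold (log2 difference 0.62, 95% interval 0.41 to 0.83, limma adjusted p = 0.00459). The ratio of Col4a1 to Col4a2 was 1.24, 1.31 and 1.24 in TfrcAKO samples, against 1.44, 1.43 and 1.41 in Tfrcfl/fl samples. Col4a4, a chain of the kidney filter and inner ear, was just over the measurement limit at 0.555, 0.761 and 0.623 FPKM in TfrcAKO samples, against 0.281, 0.160 and 0.175 FPKM in Tfrcfl/fl samples. Its log2 difference, 0.45 to 1.67 over the alternatives run, is given as a description, since its TfrcAKO samples alone brought it into the test. Col4a5 and Col4a6, X-linked chains of specialised basement membranes, were at 4.83 to 7.13 and 1.29 to 1.92 FPKM in TfrcAKO samples, against 4.23 to 4.82 and 0.878 to 1.13 FPKM in Tfrcfl/fl samples. Neither was called (log2 differences 0.33 and 0.41, limma adjusted p = 0.0957 and 0.0721), but without TfrcAKO replicate 3 both were (0.0156 and 0.0430). All 12 endothelial and 9 of 10 mural cell markers were also called higher. Their summed FPKM was 316 to 479 and 218 to 295 in TfrcAKO samples, against 152 to 174 and 109 to 125 in Tfrcfl/fl samples. Mature adipocyte markers were called higher in 11 of 12 and mesothelial markers in 8 of 10, while 11 of 12 macrophage markers were called lower. Of all tested genes 21.9% were called higher and 21.6% lower. Every mural, adipocyte and mesothelial marker had a log2 difference above 0, and every macrophage marker had one below 0. The part of any of these marker lists in the Col4 result was not tested.

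Col4a1 and Col4a2 lie head to head on chromosome 8, and their annotated positions, on opposite strands, share 22 bases. Whether counting used strand is not given in the sources used here, and without strand the reads of that stretch cannot be assigned to either gene. Their promoter windows, printed because these 2 paired genes moved together, share 78 bases read on opposite strands. The Col4a1 window (chr8:11312777-11313076, minus strand) is 74.0% G and C and the Col4a2 window (chr8:11312555-11312854, plus strand) 73.7%, with 1 CCAAT each and 1 and 3 GC boxes in capitals.
Col4a1: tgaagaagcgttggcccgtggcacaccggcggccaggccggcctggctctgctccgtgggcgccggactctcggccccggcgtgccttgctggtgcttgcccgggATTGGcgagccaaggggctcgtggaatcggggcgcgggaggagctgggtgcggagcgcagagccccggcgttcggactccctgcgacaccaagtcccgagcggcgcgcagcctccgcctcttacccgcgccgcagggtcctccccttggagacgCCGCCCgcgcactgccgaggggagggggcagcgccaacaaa
Col4a2: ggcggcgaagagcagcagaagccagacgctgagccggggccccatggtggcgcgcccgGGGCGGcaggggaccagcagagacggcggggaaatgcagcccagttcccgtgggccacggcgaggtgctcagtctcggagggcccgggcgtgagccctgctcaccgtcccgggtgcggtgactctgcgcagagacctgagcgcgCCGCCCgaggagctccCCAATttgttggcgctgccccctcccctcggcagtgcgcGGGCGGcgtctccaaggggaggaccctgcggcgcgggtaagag

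Col15a1 and Col18a1 both rose, beside 21.9% of all tested genes called higher. Type XV collagen links basement membranes to nearby fibres, and type XVIII is a heparan sulfate collagen of basement membranes whose end fragment is endostatin. Col15a1 (ENSMUSG00000028339, chr4:47208161-47313167, plus strand) was at 189.9, 187 and 249 FPKM in TfrcAKO samples, against 132, 126 and 131 FPKM in Tfrcfl/fl samples, highest in TfrcAKO replicate 3. It rose 1.61-fold with no overlap (log2 difference 0.67, 95% interval 0.36 to 0.97, limma adjusted p = 0.00876). Col18a1 (ENSMUSG00000001435, chr10:77052178-77166548, minus strand) had 74.1, 74.3 and 69.1 FPKM in TfrcAKO samples, against 50.6, 46.8 and 47.1 FPKM in Tfrcfl/fl samples. It rose 1.51-fold, also with no overlap (log2 difference 0.59, 95% interval 0.41 to 0.76, limma adjusted p = 0.00372). Unlike Col15a1 and Col5a3, it was not highest in TfrcAKO replicate 3.

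None of the 5 measured Col6 genes was called, and in all 5 the groups overlapped. Of all tested genes 43.5% were called, and in 60.1% the groups did not overlap. By limma 1 of the 5 had a p below 0.05 before adjustment, and limma-voom on recovered reads likewise called none. Type VI collagen is abundant around adipocytes, and the end fragment of its alpha 3 chain is the adipokine endotrophin. Col6a1 was at 334, 309 and 249.7 FPKM in TfrcAKO samples, against 255, 239.7 and 260.2 FPKM in Tfrcfl/fl samples (log2 difference 0.23, 95% interval -0.08 to 0.54, limma adjusted p = 0.186). TfrcAKO replicate 3 lay among the Tfrcfl/fl samples, and without it the log2 difference was 0.35 with an adjusted p of 0.0081. Col6a2 differed by 0.10 (limma adjusted p = 0.595) with the 3 TfrcAKO samples at 197 to 271 FPKM and the Tfrcfl/fl samples at 210.1 to 233 FPKM, and was called without TfrcAKO replicate 3 (0.0361). Col6a3 was at 67.7, 63.0 and 45.5 FPKM in TfrcAKO samples, against 63.1, 67.9 and 63.1 FPKM in Tfrcfl/fl samples (log2 difference -0.16, 95% interval -0.52 to 0.20). Col6a5 was at 13.1 to 30.9 FPKM in TfrcAKO and 23.3 to 26.7 FPKM in Tfrcfl/fl, with a log2 interval of -0.86 to 0.57. Col6a6 was at 3.75 to 5.12 FPKM in TfrcAKO and 2.91 to 3.82 FPKM in Tfrcfl/fl, with a limma adjusted p of 0.0877, or 0.0306 without TfrcAKO replicate 3. Leaving out that library therefore gave 3 Col6 calls.

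Of the 19 other collagen genes 8 were measured and only Col23a1 was called, 12.5% beside 43.5% of all tested genes. Col23a1, a membrane-anchored collagen, had 1.02, 1.14 and 1.12 FPKM in TfrcAKO samples, against 0.721, 0.597 and 0.480 FPKM in Tfrcfl/fl samples. It rose with no overlap (log2 difference 0.54 ± 0.13 SE, limma adjusted p = 0.0180), although it was near the measurement limit and lost its call without Tfrcfl/fl replicate 2 (0.0610) or 3 (0.0694). Col8a1, a short-chain network collagen of vessel walls, was at 12.4, 10.4 and 5.19 FPKM in TfrcAKO samples, against 14.3, 14.8 and 17.5 FPKM in Tfrcfl/fl samples. Its groups did not overlap but it was not called (log2 difference -0.78, limma adjusted p = 0.0691), and it was called without TfrcAKO replicate 1 (0.0300) or 3 (0.0230). The remaining 6 genes, Col8a2, Col12a1, Col14a1, Col16a1, Col20a1 and Col28a1, had log2 differences of -0.42 to 0.38 and were not called. Col14a1 and Col16a1, which sit on fibre surfaces with interrupted helices, were the most abundant of them. Col14a1 was at 26.0, 23.9 and 14.9 FPKM in TfrcAKO samples, against 22.5, 22.9 and 27.0 FPKM in Tfrcfl/fl samples (log2 interval -0.69 to 0.30). Col16a1 had 20.7, 19.5 and 13.3 FPKM in TfrcAKO samples, against 16.7, 18.1 and 18.6 FPKM in Tfrcfl/fl samples (log2 interval -0.41 to 0.37). TfrcAKO replicate 3 was lowest for both, and the groups overlapped. Col12a1 was at 2.83 to 5.22 FPKM in TfrcAKO and 2.65 to 3.75 FPKM in Tfrcfl/fl, and Col8a2 at 0.731 to 1.48 FPKM in TfrcAKO and 1.42 to 2.19 FPKM in Tfrcfl/fl. Col20a1 was at 0.714 to 1.21 FPKM in TfrcAKO and 0.687 to 1.16 FPKM in Tfrcfl/fl. Col28a1 had 1.83 to 2.82 FPKM in TfrcAKO and 1.40 to 1.78 FPKM in Tfrcfl/fl, without overlap, and was called only without TfrcAKO replicate 3 among the libraries left out (0.0395).

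The 17 genes under the limit are stated as not measured. They are Col2a1, Col11a1, Col11a2 and Col24a1 among the fibrillar genes, Col4a3, Col6a4, and 11 others, namely Col7a1, Col9a1, Col9a2, Col9a3, Col10a1, Col13a1, Col17a1, Col19a1, Col22a1, Col25a1 and Col26a1. Just outside it lay Col11a2, with 0.539, 0.225 and 0.203 FPKM in TfrcAKO samples, against 0.425, 0.425 and 0.359 FPKM in Tfrcfl/fl samples. Groups did not overlap in 3 of the 17, given without a test. Col24a1 was at 0.0371 to 0.0502 FPKM in TfrcAKO samples and 0.140 to 0.199 FPKM in Tfrcfl/fl samples, resting on at most 42 reads in a library. Col4a3 was at 0.191 to 0.288 FPKM in TfrcAKO samples and 0.0763 to 0.144 FPKM in Tfrcfl/fl samples. Col13a1 was at 0.227 to 0.371 FPKM in TfrcAKO samples and 0.0217 to 0.0751 FPKM in Tfrcfl/fl samples, resting on at most 31 reads in a library.

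**Figure D2:**
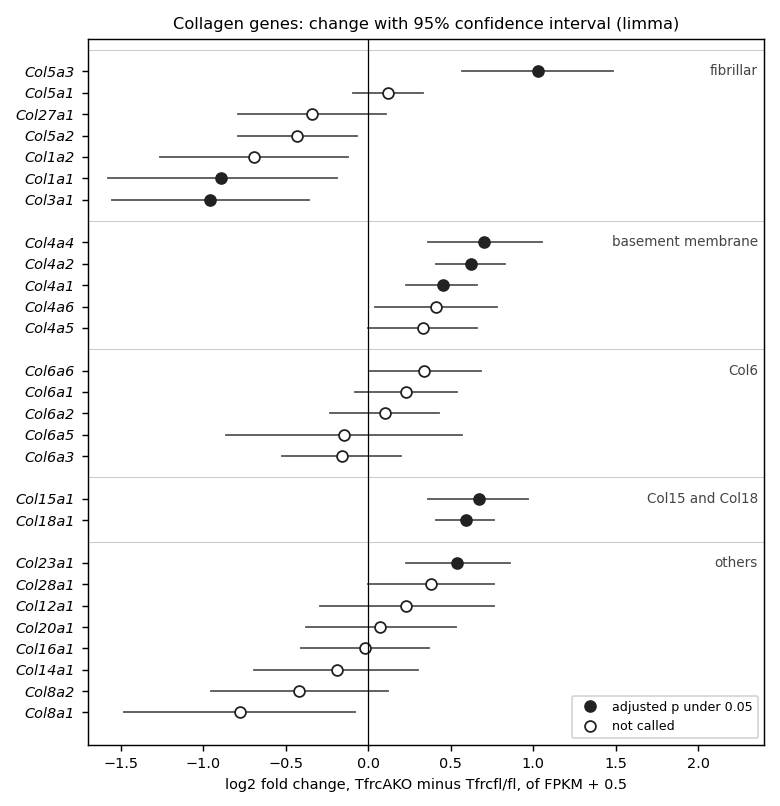
Log2 difference in FPKM between TfrcAKO and Tfrcfl/fl for the 27 measured collagen genes, with 95% intervals from limma, grouped by class. The Col4, Col15a1, Col18a1 and Col5a3 points lie above 0, and Col3a1 and Col1a1 below it.

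The make-up of collagen RNA differed between the groups. All collagen genes together came to 3231, 3036 and 2605 FPKM in TfrcAKO samples, against 3149.8, 3078 and 3543 FPKM in Tfrcfl/fl samples, which overlap. Fibrillar genes made up 46.7%, 45.4% and 38.7% of that sum in TfrcAKO samples, against 58.1%, 59.1% and 63.1% in Tfrcfl/fl samples. The Col4 share was 21.0%, 22.1% and 27.9% in TfrcAKO samples, against 15.8%, 15.4% and 13.4% in Tfrcfl/fl samples. In both shares the groups did not overlap, and TfrcAKO replicate 3 lay farthest from the Tfrcfl/fl samples. Col4a1 and Col4a2 together reached 0.558, 0.621 and 1.15 times the sum of Col1a1, Col1a2 and Col3a1 in TfrcAKO samples, against 0.308, 0.295 and 0.238 times in Tfrcfl/fl samples. Ordered by mean FPKM, Col3a1, Col4a1 and Col4a2 were the first 3 in TfrcAKO, whereas Col3a1, Col1a2 and Col1a1 were the first 3 in Tfrcfl/fl. These sums and shares are given without a test.

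**Figure D3:**
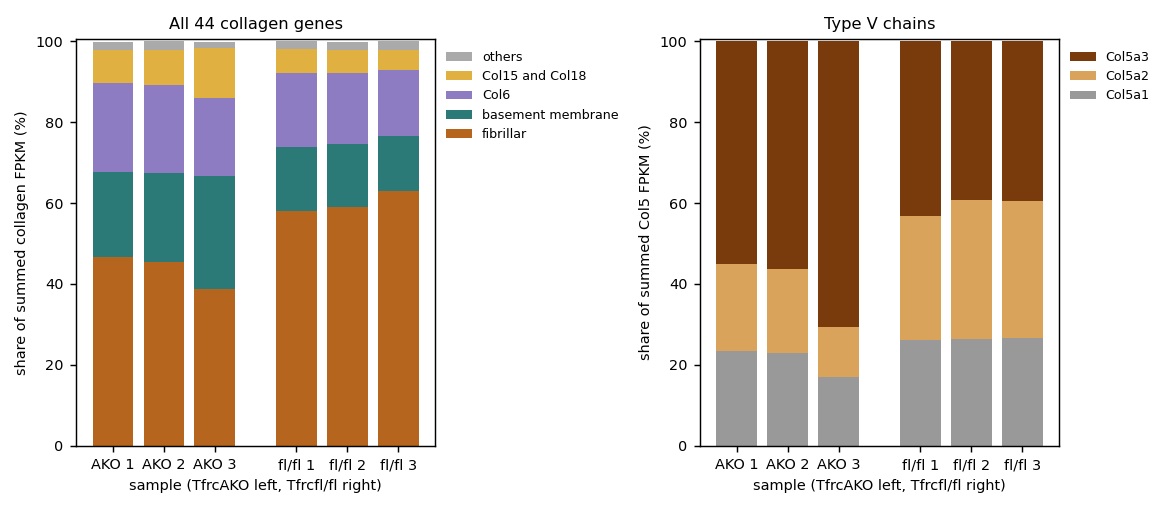
Stacked bars of the percent of summed FPKM in each sample, by class for all 44 collagen genes on the left and by chain for the Col5 genes on the right. Fibrillar genes take 38.7% to 46.7% in TfrcAKO samples and 58.1% to 63.1% in Tfrcfl/fl samples.

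**Figure D4:**
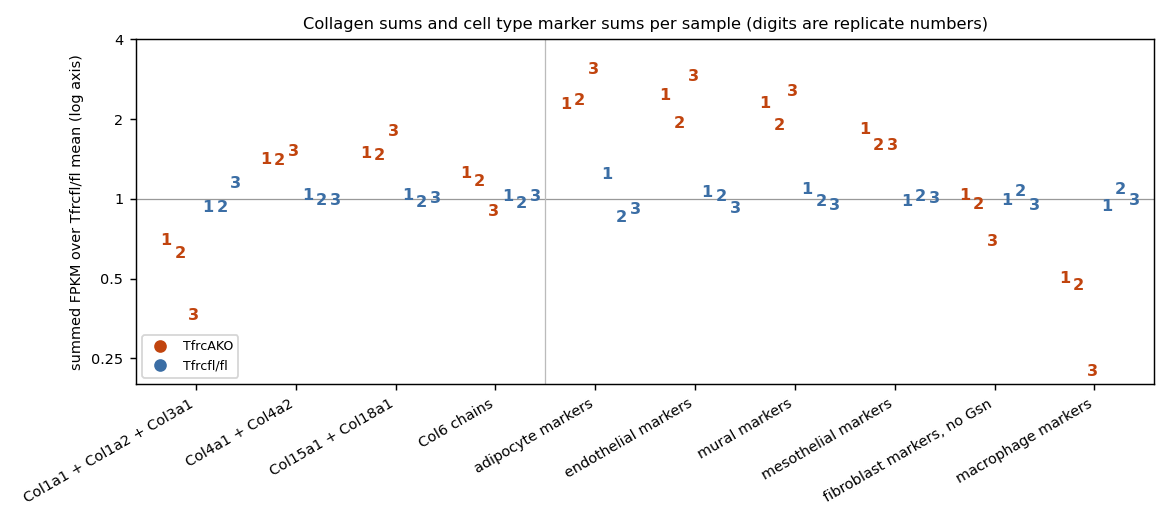
Summed FPKM of collagen groups and marker lists in each sample, divided by the Tfrcfl/fl mean and drawn on a log axis, with digits for replicate numbers and the fibroblast progenitor list without Gsn. The sums of Col4a1 with Col4a2 and of adipocyte, endothelial, mural and mesothelial markers are higher in every TfrcAKO sample, and the macrophage sum lower.

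Genes that make, modify or bind collagen were counted from 9 lists holding 86 genes, of which 78 were measured. Log2 differences were above 0 in 36 and below 0 in 42, with a median of -0.04, and 16 genes were called higher and 14 lower. That is 20.5% higher and 17.9% lower, beside 21.9% and 21.6% of all tested genes, so the lists together were called no more often than other genes. The lower count was 8, 6 and 7 without Tfrcfl/fl replicates 1, 2 and 3. Most basement membrane partners moved with the Col4 genes: 8 of 11 were called higher and none lower, with a median log2 difference of 0.77. Lama2 alone went the other way. It was lower in every TfrcAKO sample but not called (log2 difference -0.45, limma adjusted p = 0.074). Pxdn, the peroxidase that cross-links type IV collagen, averaged 55.0 ± 5.06 FPKM in TfrcAKO and 27.7 ± 2.67 FPKM in Tfrcfl/fl (SD, n = 3 each), a log2 difference of 0.98 (limma adjusted p = 0.00363). The proteoglycan Hspg2 (0.87), the linker Nid2 (0.81) and the laminin chain Lama5 (1.16) rose too on the log2 scale. Among 14 fibril-associated genes, 2 rose and 5 fell, with 2 lower without TfrcAKO replicate 2, 2 without Tfrcfl/fl replicate 1 and 1 without Tfrcfl/fl replicate 2 or 3, and with 4 higher without TfrcAKO replicate 3. With no filter, or with a replicate block, 2 were lower. Postn, a matrix protein of scar tissue, averaged 69.7 ± 12.4 FPKM in TfrcAKO and 154 ± 14.7 FPKM in Tfrcfl/fl, a log2 difference of -1.15 (limma adjusted p = 0.00404), while Sparc and Prelp, which bind collagen, rose by 0.79 and 1.08. Emilin1, an elastic fibre glycoprotein, fell by 0.65 and lost its call without TfrcAKO replicate 2 (0.0568) or Tfrcfl/fl replicate 2 (0.0707) or 3 (0.0784).

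Enzymes and chaperones of collagen synthesis did not move in a common direction. Serpinh1, the collagen chaperone Hsp47, rose with a log2 difference of 0.52 (399 ± 40.2 FPKM in TfrcAKO, 279 ± 21.0 FPKM in Tfrcfl/fl, limma adjusted p = 0.0142), and was not called without Tfrcfl/fl replicate 2 (0.0620) or 3 (0.0526). Fkbp10, another collagen chaperone, fell by 0.47, and its adjusted p was 0.0563 to 0.121 without TfrcAKO replicate 2 or any 1 Tfrcfl/fl library. Colgalt1, which adds galactose to hydroxylysine, was at 48.0 ± 8.60 FPKM in TfrcAKO and 81.8 ± 5.58 FPKM in Tfrcfl/fl, a log2 difference of -0.78 (limma adjusted p = 0.00769). Plod2, the lysyl hydroxylase of the chain ends, fell by 0.80 on the log2 scale but was not called without any 1 Tfrcfl/fl library (0.0566, 0.0746 and 0.0790). Of 9 measured prolyl hydroxylation genes only P3h1, a prolyl 3-hydroxylase, was called, at 0.25 (0.0234), beside 43.5% of all tested genes. The iron-dependent 4-hydroxylase gene P4ha1 was at 16.3 ± 4.03 FPKM in TfrcAKO and 19.4 ± 1.04 FPKM in Tfrcfl/fl, not called (0.258). P4ha2, also a 4-hydroxylase gene, lay the other way, at 10.4 ± 1.17 FPKM in TfrcAKO and 8.11 ± 1.08 FPKM in Tfrcfl/fl. Its groups did not overlap, and it was not called either (0.0571). P3h1 lost its call when any library other than TfrcAKO replicate 3 was left out, at adjusted p-values of 0.0613 to 0.0836. The N-propeptide protease Adamts14 fell by 0.89, the propeptide enhancer Pcolce2 rose by 0.96 and the lysyl oxidase Loxl4 rose by 0.57 on the log2 scale. Pcolce2 and Loxl4 went against their lists. In each, 4 of 5 measured genes had log2 differences below 0, with medians of -0.25 for propeptide cleavage and -0.36 for crosslinking. Without TfrcAKO replicate 1, 3 crosslinking, 2 prolyl hydroxylation and 2 propeptide cleavage genes were lower, and without TfrcAKO replicate 3, 2 crosslinking and 2 propeptide cleavage genes.

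Of 10 measured collagen receptor genes 1 rose and 2 fell, and of 12 fibrogenic signal genes 1 rose and 3 fell, beside 21.9% higher and 21.6% lower of all tested genes. Without TfrcAKO replicate 3 each list had 3 genes higher, and without Tfrcfl/fl replicate 2 the signals had 1 lower. Ddr1, a collagen-activated kinase receptor, rose with a log2 difference of 0.83 (limma adjusted p = 0.00372). Lair1, an inhibitory collagen receptor of leukocytes, was at 6.85 ± 3.08 FPKM in TfrcAKO and 22.5 ± 1.81 FPKM in Tfrcfl/fl, a log2 difference of -1.75 (limma adjusted p = 0.00826). The receptor Antxr2 fell by 0.56. Tgfb1, the fibrogenic cytokine, was at 48.2 ± 8.96 FPKM in TfrcAKO and 102 ± 4.68 FPKM in Tfrcfl/fl, a log2 difference of -1.09 (limma adjusted p = 0.00404). Its receptor genes Tgfbr1 and Tgfbr2 fell by 0.92 and 0.52, but Tgfbr1 was not called without Tfrcfl/fl replicate 2 (0.0521), nor Tgfbr2 without TfrcAKO replicate 2 or any 1 Tfrcfl/fl library (0.0551 to 0.0951). Tgfb3 rose by 0.34 (limma adjusted p = 0.0395) and kept its call only without TfrcAKO replicate 3 among the libraries left out. Of 12 macrophage markers 11 fell, with sums of 1341 to 3021 FPKM in TfrcAKO samples and 5613 to 6525 FPKM in Tfrcfl/fl samples, and 4 or 7 fell without Tfrcfl/fl replicate 2 or 3. Of 12 fibroblast progenitor markers 1 was called higher, Gsn, and none lower. The list leaned the other way, with 9 log2 differences below 0, 3 above 0 and a median of -0.1. It summed to 3423 to 4117 FPKM in TfrcAKO samples and 2443 to 2996 FPKM in Tfrcfl/fl samples. The sums were 962 to 1434 FPKM in TfrcAKO samples and 1316 to 1489.9 FPKM in Tfrcfl/fl samples without Gsn, which was left out after its values were seen. The list's count was 2 without TfrcAKO replicate 3. Mesothelial markers rose in 8 of 10, with sums of 129 to 149 FPKM in TfrcAKO and 79.3 to 83.1 FPKM in Tfrcfl/fl, and mature adipocyte markers in 11 of 12, with sums of 18794 to 25508 FPKM in TfrcAKO and 7006 to 10206 FPKM in Tfrcfl/fl. The part of these cell markers in the fibrillar result was not tested.

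**Figure D5:**
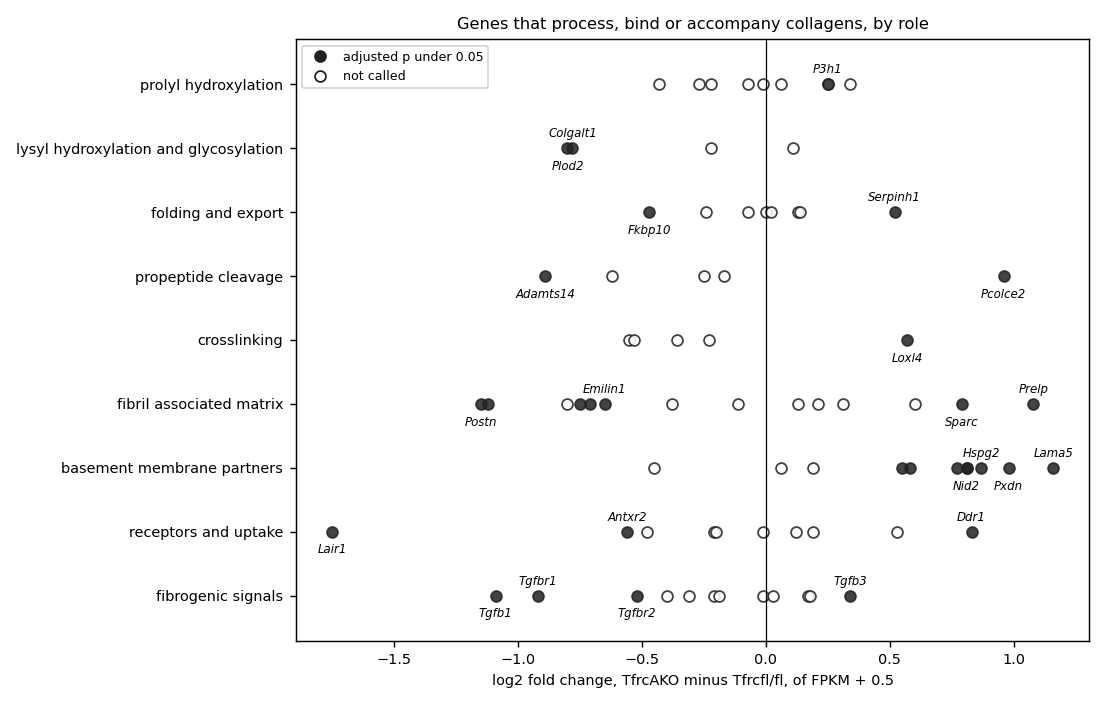
Log2 difference between TfrcAKO and Tfrcfl/fl for the genes of the collagen pathway lists, in 1 row of points for each role, with filled points for called genes. Basement membrane partners lie mostly above 0, while Postn, Tgfb1 and Lair1 lie below it.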

How the data were processed

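Gene expression was measured by RNA sequencing in 6 samples of epididymal adipose tissue. The deposited table holds FPKM values for 35275 genes, which the authors normalized to gene length and library size. Per the submitters' processing notes, the tools were CASAVA, FastQC, STAR 2.5 and HTSeq 0.6.1, with build mm10. The library kit was a NEBNext Ultra kit, per the labels' protocols, and the strand setting of the counting is not given in the sources used here. Dividing each FPKM value by the worth of 1 read gave whole reads within 0.01 read, so the samples' depths, 25252839 to 30650624 assigned reads, were recovered from the values. A count of 3 reads in a library, for a gene 2 kb long, equals 0.0489 to 0.0594 FPKM, which covers counting error only.

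Genes at 0.5 FPKM or more in at least 3 samples (14383) were tested on log2(FPKM + 0.5) with limma 3.58.1 in R 4.3.3 (moderated, trend and robust, Benjamini-Hochberg adjustment over all tested genes). The difference between the groups was fitted without a replicate block. Alternatives were another pseudocount (0.1 or 1), a filter at 1 FPKM, no filter, median-of-ratios scaling, a replicate block and leaving out each library. Limma-voom on recovered reads, with and without the block, was added after the data were seen. Named were Tfrc, every measured collagen gene, those nearest the measurement limit, and in each pathway list up to 4 called genes with the smallest p. The uncalled P4ha1, P4ha2 and Lama2 and single marker genes were named outside this rule. The members and lists were chosen with earlier results of these data known. Sequences are from RefSeq GRCm38.p6, and no protein sequence is used here.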

Additional observations from a re-analysis of the deposited data

How the results depend on the processing

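Deviations from the group mean correlated at -0.24, 0.03 and -0.18 between same-numbered samples, and at -0.08 to 0.23 between other pairs. From 3 samples in each group, these values cannot show whether a shared number marks a batch. With a replicate block 4581 of all tested genes were called instead of 6253. The 6 collagen genes then called were all higher, Col4a4 included, and all among the original 9. No collagen gene was then called lower by limma, 0 in the fibrillar class, although 4 collagen genes, 3 of them fibrillar, had p below 0.05 before adjustment. Col3a1, Col1a1 and Col23a1 had adjusted p-values of 0.0520, 0.0813 and 0.0558 under the block, and the count of other collagens called higher was 0. Median-of-ratios scaling gave 4 lower collagen genes, all 4 fibrillar. Without a filter, 10 collagen genes were called, 8 of the original 9 and 2 under the measurement limit, 2 others were higher, and Col1a1 was at 0.0812. Limma-voom on recovered reads called 9 of the original 9 collagen genes. With the block it gave 1 lower collagen gene, which was fibrillar, 1 higher Col6 gene and 2 higher others, and 7 of the original 9 were shared. Col4a1 was then at 0.0761. Of the named pathway genes, P3h1 (0.0922), Fkbp10 (0.0795), Emilin1 (0.0505) and Tgfb3 (0.0857) were not called under limma's replicate block, nor Fkbp10 (0.0687) and Tgfb3 (0.0715) without a filter. Fibril-associated genes called lower numbered 2 in either case, instead of 5. The cause of these shifts was not tested.

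With each library left out in turn, called genes ranged from 3371 to 5958 in either direction, from 1897 to 3063 higher and from 1324 to 3064 lower, the fewest being 3371 without Tfrcfl/fl replicate 2 and 3456 without Tfrcfl/fl replicate 3. Collagen genes ranged from 5 to 13 higher and from 0 to 5 lower. Col4a4 is in each of these higher counts and in those of the Col4 class below. By class, fibrillar genes lower ranged from 0 to 4, Col4 genes higher from 2 to 5, Col6 genes higher from 0 to 3, others higher from 0 to 2 and others lower from 0 to 1. Pathway genes lower ranged from 6 to 21. The log2 difference of 5 uncalled genes changed sign, over ranges of -0.34 to 0.05 for Col14a1, -0.14 to 0.17 for Col16a1, -0.05 to 0.22 for Col20a1, -0.27 to 0.01 for Col6a3 and -0.38 to 0.23 for Col6a5. The sign changed without TfrcAKO replicate 3 for Col14a1, Col16a1, Col6a3 and Col6a5, without Tfrcfl/fl replicate 3 for Col16a1 (0.01), and without TfrcAKO replicate 1 (-0.03) or Tfrcfl/fl replicate 1 for Col20a1. Col4a2, Col5a3, Col15a1 and Col18a1 kept direction and call in every alternative run. The planned count-model tests were not run, and limma-voom on recovered reads was run in their place.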
